A study of Mus musculus with 8 samples.

Results

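The tumour necrosis factor (TNF) superfamily of ligands and receptors was followed in whole lungs of mechanically ventilated mice and of mice that were not ventilated. Members were chosen by gene symbol: every probe annotated to Tnf, or to a symbol that starts with Tnfsf or Tnfrsf followed by a number. The rule found 49 of the 25697 probes on the array, for 31 of the 16593 genes named there, of which 11 encode ligands and 20 encode receptors. All 31 symbols equalled the RefSeq symbol for the same gene identifier. A probe was called detected on an array when its deposited detection p-value was under 0.05, and measured when it was detected on at least 3 of the 8 arrays. By that definition 21 of the 49 probes (42.9%, beside 52.0% of all probes) were measured, for 15 genes.

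The ventilated group held 5 mice and the control group, labelled as without ventilation, held 3 mice. All were of the NOD/shi strain, a substrain of the non-obese diabetic mouse, in which autoimmunity against the pancreas arises without treatment, and all were aged 6 to 12 weeks. The title names ventilator-induced injury, the harm that mechanical breathing itself does to lung tissue. The sources used here give no ventilator settings, duration, anaesthesia, sex or handling of the controls. Each lung went onto its own single-colour Illumina bead array. The labels number the lungs separately, so p-values measure the spread between these 8 samples.

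Ligands of this superfamily are mostly trimeric proteins anchored in the membrane, and many can be cut off and released. Receptors carry repeats rich in cysteine outside the cell. Some have a death domain inside the cell and can start apoptosis or, through adaptors, inflammatory signalling. Others bind TRAF adaptors and switch on NF-kB and kinases, and a few are soluble or lack a signalling tail and act as decoys. In the lung, TNF itself is known as an early product of macrophages that activates endothelium and draws in neutrophils.

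Arrays of both groups varied in how bright they were. Mean raw intensity lay between 87.4 and 321 on ventilated arrays and between 54.3 and 332 on control arrays. Between 13 and 22 of the 49 TNF superfamily probes were detected on a ventilated array. The controls had 27, 10 and 20, with the lowest number on control 2, the dimmest array. Across all features, control 2 correlated with the other arrays at 0.846 to 0.899, below the lowest value among the other pairs, 0.912. Alveolar markers matched the labelled tissue, with Sftpc, surfactant protein C, at a log2 level of 13.25 in ventilated and 12.95 in control lungs. Of the 6 alveolar epithelial markers 5 were measured, and Hopx was not. All levels below are background-corrected, quantile-normalized log2 values, and levels of different probes are not compared with each other. In whole tissue, fewer cells of a type and less RNA per cell cannot be told apart.

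Of 11 ligand genes 3 were measured, Tnfsf14, Tnfsf13b and Tnfsf9, against 12 of 20 receptor genes. Tnf, the founding cytokine, was detected on ventilated array 1 alone. Its level was 5.11, 4.30, 4.31, 4.46 and 4.34 in ventilated lungs 1 to 5, against 4.37, 4.26 and 4.36 in control lungs 1 to 3. The normalized value of ventilated lung 1 was the highest, and the other 7 lungs give only bounds. On control 2 and ventilated 4 the lowest level that counted as detected, 5.79 and 5.24, lay above 5.11. Ventilated lung 1 is therefore not shown to have had more Tnf transcript than those lungs. Across arrays, the lowest level that counted as detected ranged from 4.49 to 5.79, so a modest amount of Tnf transcript was not detectable at this signal.

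Of the 28 probes that were not measured, 16 were detected on no array and 12 on 1 or 2 arrays. Over these 28 probes, 9 of 140 readings (6.43%) in ventilated lungs and 8 of 84 (9.52%) in control lungs had a detection p under 0.05. Their levels ranged from 4.14 to 5.73. Ligands with no detection on any array were Tnfsf4 (OX40 ligand), Tnfsf12 (TWEAK), Tnfsf15 (TL1A) and Tnfsf18 (GITR ligand). Tnfsf11, the RANK ligand, was detected on 1 ventilated array, Tnfsf8, the CD30 ligand, on 1 control array, and Tnfsf10, the death ligand TRAIL, on 2 control arrays. Receptors with no detection were Tnfrsf13b, Tnfrsf13c and Tnfrsf17, the B cell and plasma cell receptors for BAFF and APRIL, and the decoy-type receptors Tnfrsf23 and Tnfrsf26. Tnfrsf1b, the second TNF receptor, was detected on 1 ventilated array by 1 of its 2 probes. Tnfrsf8 (CD30) was likewise detected on 1 ventilated array by 1 of 2 probes. Tnfrsf14 (HVEM) was detected on 2 control arrays and no ventilated array.

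**Figure D1:**
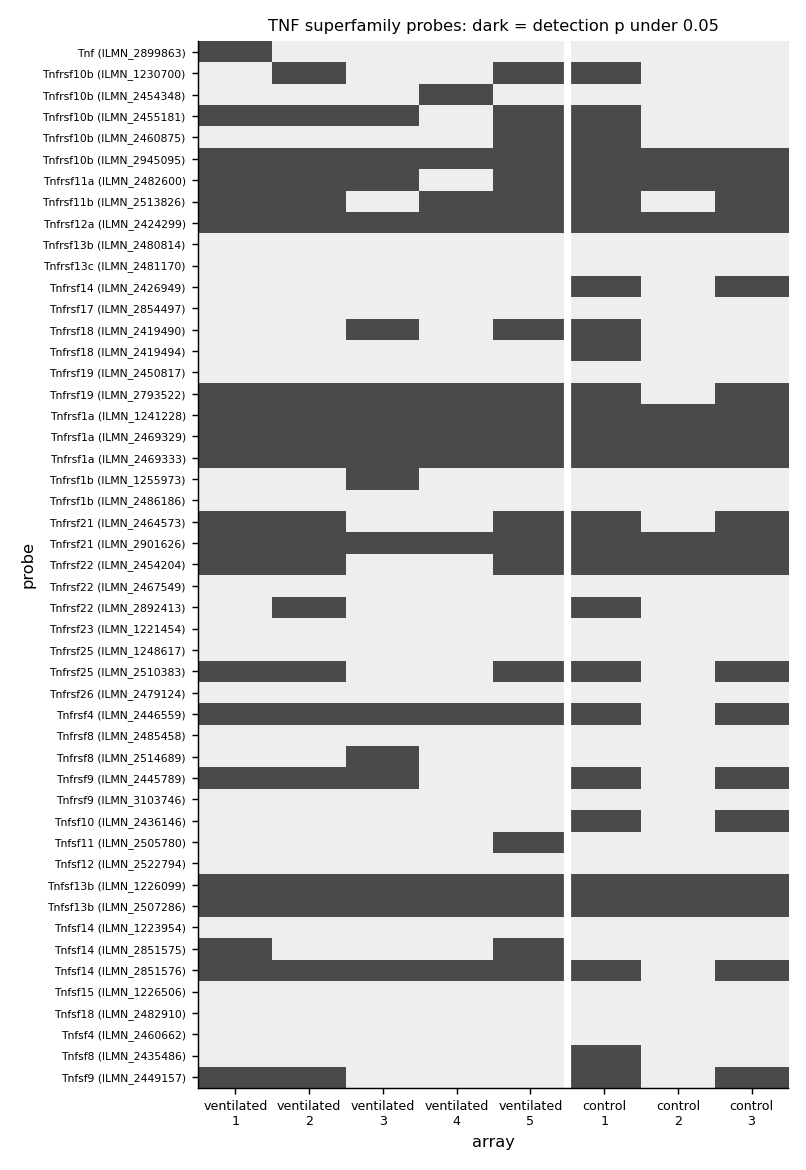
Detection of the 49 TNF superfamily probes (rows, gene symbol and probe) on the 5 ventilated and 3 control arrays (columns). Dark cells have a detection p under 0.05. Whole rows are light for 16 probes, and 8 probes are dark on all 8 arrays.

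No measured member passed the test between ventilated and control lungs, although some members were about 2-fold higher after ventilation. The comparison asked which family transcripts differ between ventilated and non-ventilated lungs. In limma's moderated test with Benjamini-Hochberg adjustment over all 10200 features, 0 of 15 members had an adjusted p under 0.05, beside 2.00% of all features (204). Of the 204, 129 (1.26% of features) were higher and 75 (0.735%) lower in ventilated lungs. With the deposited value table, which is not background-subtracted, that split was 6 higher and 0 lower. At an unadjusted p under 0.05 there were 3 of 15 members (20%), all higher in ventilated lungs, beside 16.2% of all features (8.69% higher and 7.55% lower). The groups did not overlap for 2 of 15 members (13.3%), beside 13.2% of all features (6.71% higher and 6.45% lower in ventilated lungs). Both members were higher, though 1 of them, Tnfsf14, was not detected on control 2. These shares are near the background. The median log2 fold change was 0.15 over the 15 members and 0.01 over all features.

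The 3 members with an unadjusted p under 0.05 were Tnfrsf12a, Tnfsf14 and Tnfrsf4. The fold changes of the 15 members ran from −0.88 for Tnfrsf22 to 1.15 for Tnfrsf12a on the log2 scale, and 9 were positive. Of the 15, 8 were detected on all ventilated arrays, 7 on all control arrays and 5 on all 8 arrays. On control 2 alone, 8 of the 15 were not detected. A gene could pass the detection filter through the ventilated arrays alone, so these counts describe the measured members and not the family.

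**Figure D2:**
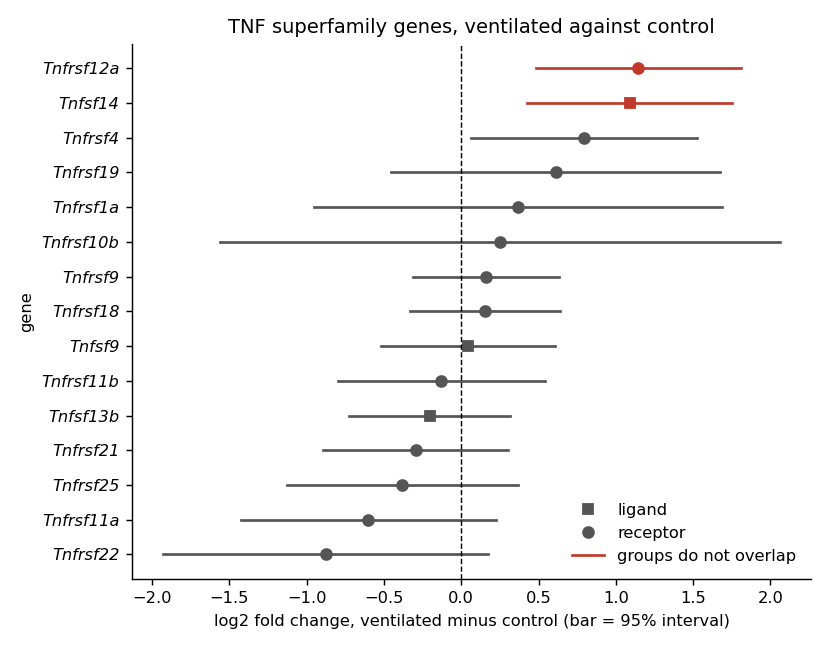
Log2 fold change, ventilated minus control, of the 15 measured TNF superfamily genes, with 95% intervals from the limma fit (5 ventilated and 3 control arrays). Squares are ligands, circles are receptors, and red marks the 2 genes whose groups do not overlap, Tnfrsf12a and Tnfsf14; the interval also lies above 0 for Tnfrsf4.

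**Figure D3:**
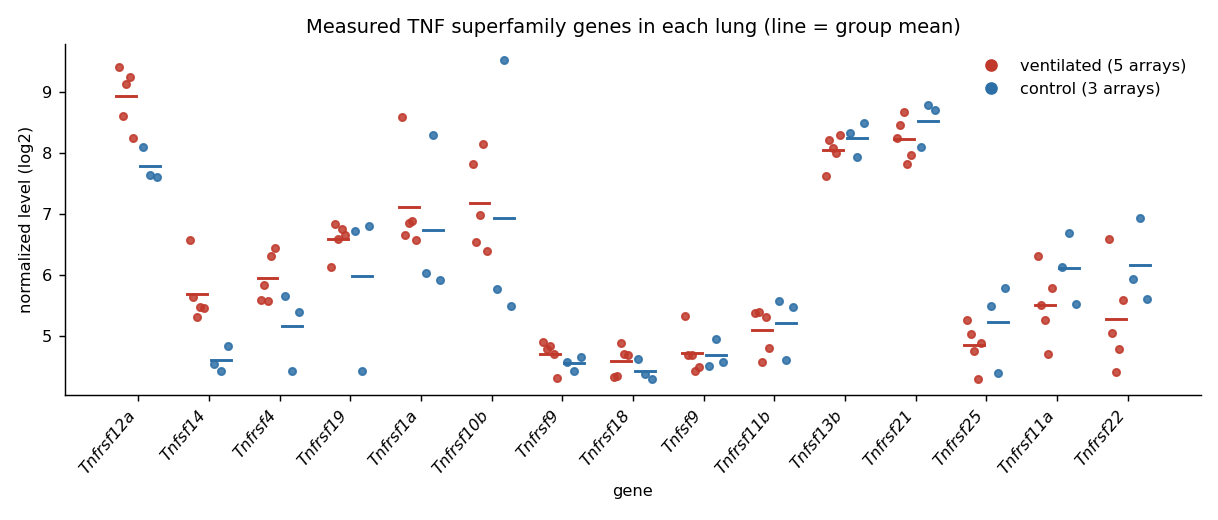
Normalized log2 level of each measured gene in each lung, ventilated on the left and control on the right of each pair, with group means as lines. Genes are ordered by fold change. Control 2 sets the wide control spread of Tnfrsf10b, Tnfrsf1a and Tnfrsf19.

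Tnfsf14 (LIGHT), a ligand made by activated T cells and myeloid cells, had normalized levels in every ventilated lung above those of every control. By its measured probe, ILMN_2851576, it stood at 6.57, 5.64, 5.32, 5.48 and 5.46 in ventilated lungs 1 to 5. In control lungs 1 to 3 it stood at 4.55, 4.42 and 4.84, and it was not detected on control 2. The lowest level that counted as detected on that array was 5.79, above the values of ventilated 2 to 5. Control 2 therefore gives only a bound and does not show that those lungs had more. The ventilated values lay above those of controls 1 and 3, on which the probe was detected, and lung 1 was the highest. Its log2 fold change was 1.09 ± 0.30 (SE; 95% interval 0.43 to 1.75; adjusted p = 0.101), or 2.13-fold. The size depended on the background correction, with a log2 fold change of 0.53 under normexp with an offset of 50 and no inferred negative controls. Within the 4 brighter arrays, ventilated 2 and 5 against control 1 and 3, it was 0.86. The other 2 Tnfsf14 probes were not measured and give no fold. ILMN_2851575 was detected on ventilated arrays 1 and 5 and on no control, and ILMN_1223954 on no array.

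Tnfsf13b (BAFF), the B cell survival factor, was the ligand detected on all 8 arrays. Its level was 7.63, 8.21, 8.08, 8.0 and 8.30 in ventilated lungs, against 8.32, 7.93 and 8.49 in controls. The groups overlapped. The log2 fold change was −0.20 ± 0.24 (SE; 95% interval −0.72 to 0.32; adjusted p = 0.726), and a second probe gave −0.36 (adjusted p = 0.516 over all probes). Tnfsf9 (4-1BB ligand), a costimulator of T cells, was near the detection limit, on 2 ventilated and 2 control arrays. It stood at 5.32, 4.69, 4.68, 4.43 and 4.49 in ventilated lungs, against 4.51, 4.95 and 4.58 in controls, and its log2 fold change was 0.05 ± 0.25 (SE; adjusted p = 0.951).

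Among receptors that bind TRAF adaptors and lack a death domain, Tnfrsf12a (Fn14), the receptor for TWEAK that many cell types induce after injury, had the largest difference of the family. It was detected on all 8 arrays. Its level was 9.42, 8.60, 9.14, 9.26 and 8.25 in ventilated lungs 1 to 5, against 8.11, 7.65 and 7.61 in control lungs 1 to 3. Each ventilated lung stood above each control, though ventilated 5 exceeded control 1 by little. The means were 8.93 ± 0.49 (SD, n = 5) and 7.79 ± 0.28 (SD, n = 3). The log2 fold change was 1.15 ± 0.30 (SE; 95% interval 0.48 to 1.81; adjusted p = 0.0875), or 2.21-fold. It was 0.57 (adjusted p = 0.365) within the 4 brighter arrays. Among ventilated lungs the values of the dimmer arrays, 1, 3 and 4, all lay above those of the brighter arrays, 2 and 5, and the part of brightness in the difference was not tested further. In the dimmer arrays, which hold 1 control, ventilated 1, 3 and 4 stood at 9.42, 9.14 and 9.26, against 7.65 in control 2. Leaving out 1 array gave 1.03 to 1.32, with no adjusted p below 0.0638. Its ligand, Tnfsf12, was detected on none of the 8 arrays, with levels of 4.40, 4.26, 4.24, 4.45 and 4.29 in ventilated lungs, against 4.30, 4.95 and 4.30 in controls.

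Tnfrsf4 (OX40), a costimulatory receptor of activated and regulatory T cells, was detected on all ventilated arrays and on controls 1 and 3. It stood at 5.59, 5.83, 5.57, 6.32 and 6.44 in ventilated lungs, against 5.66, 4.43 and 5.39 in controls. Control 1 lay above ventilated 1 and 3, so the groups overlapped. The log2 fold change was 0.79 ± 0.33 (SE; 95% interval 0.06 to 1.52; adjusted p = 0.271), and it was 0.43 without control 2, on which the probe was not detected. With a common median in place of quantile normalization it was 0.14. Tnfrsf18 (GITR), a neighbouring gene with a related T cell function, had a log2 fold change of 0.15 ± 0.22 (SE; adjusted p = 0.785). Tnfrsf9 (4-1BB), the receptor for Tnfsf9, had 0.16 ± 0.21 (SE; adjusted p = 0.771). Both were near the detection limit, with Tnfrsf18 detected on 2 ventilated and 1 control arrays and Tnfrsf9 on 3 and 2.

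Tnfrsf11a (RANK), the receptor through which RANK ligand drives osteoclast formation, leaned the other way. Its level was 6.31, 5.50, 5.27, 4.70 and 5.79 in ventilated lungs, against 6.13, 6.68 and 5.53 in controls. It was not detected on ventilated 4, so 4.70 gives only a bound. The groups overlapped, and the log2 fold change was −0.60 ± 0.37 (SE; adjusted p = 0.478), and −0.89 to −0.32 with 1 array left out. Without ventilated 4 it was −0.40. Tnfrsf19 (TROY), a receptor best known from epithelial and neural stem cells, had a difference that rested on 1 control. It stood at 6.14, 6.83, 6.59, 6.75 and 6.66 in ventilated lungs, against 6.71, 4.43 and 6.81 in controls. Only control 2, where the probe was not detected, lay apart. Ventilated minus control came to a log2 fold change of 0.61 ± 0.48 (SE; adjusted p = 0.587) with control 2 and −0.17 without it.

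Among the death domain receptors, Tnfrsf1a, the main receptor for TNF on most cells, split the lungs across the groups and not between them. By the probe used for the gene, ILMN_2469329, its level was 8.59, 6.66, 6.85, 6.88 and 6.58 in ventilated lungs 1 to 5, against 6.03, 8.29 and 5.92 in control lungs 1 to 3. Ventilated 1 and control 2 stood about 1.4 or more above the other 6 lungs. The same 2 lungs were the highest for the other 2 Tnfrsf1a probes. By probe ILMN_1241228 ventilated 1 and control 2 had 8.31 and 8.47, and the next lung had 6.60. By ILMN_2469333 they had 8.20 and 7.92, and the next lung had 6.36. The gaps to the third lung were 1.41, 1.71 and 1.56 for the 3 probes, which correlated with each other at 0.963 to 0.987 over the 8 arrays. On the log2 scale the fold change was 0.37 ± 0.60 (SE; 95% interval −0.95 to 1.69; adjusted p = 0.814). It was 1.14 (adjusted p = 0.251) without control 2 and −0.0040 (adjusted p = 0.997) without ventilated 1. Without control 1 it was 0.0077 and without control 3 −0.05. Whether the probes overlap in sequence was not examined, so they are not counted as independent measurements.

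Tnfrsf10b, the mouse receptor for TRAIL, had levels that followed array brightness by the probe used for it, ILMN_2945095. Its level was 7.83, 6.54, 6.99, 8.15 and 6.40 in ventilated lungs, against 5.77, 9.53 and 5.49 in controls. The highest value was that of control 2, the dimmest array. The raw intensity of the probe was 132, 133, 96.4, 109 and 180 on ventilated arrays, against 144, 107 and 88.9 on controls, a range much narrower than that of the arrays' mean intensity. Over the 8 arrays its level and the log2 mean intensity correlated at r = −0.94 (exact permutation p = 0.000422) and rho = −0.93 (exact permutation p = 0.00223). Adjusted over the 15 members tested this way, these were 0.00632 and 0.0335. Without control 2 and control 1, the arrays farthest from the median brightness, r was −0.88. Among the ventilated arrays alone, the level also fell in order as brightness rose, with 8.15 in lung 4 on the dimmest and 6.40 in lung 5 on the brightest. Between the groups the log2 fold change was 0.25 ± 0.82 (SE; adjusted p = 0.91). It was 1.55 (adjusted p = 0.103) without control 2 and −0.32 with brightness as a block. Its other 2 measured probes gave 0.38 and 0.20 (adjusted p = 0.487 and 0.772 over all probes). Over the 8 arrays ILMN_2455181 correlated with the probe used at 0.88. ILMN_1230700, detected on 2 ventilated arrays and 1 control array, correlated at −0.19. Most of its values were not detected, among them the lowest, 4.21 on control 2. Whether it disagrees with the probe used therefore cannot be decided. The part of array brightness in these values was not tested further.

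No other member had an adjusted p under 0.05 for r, but 3 more had an unadjusted one. These were Tnfsf13b, with r = 0.76 (exact permutation p = 0.027), Tnfrsf19, with r = 0.72 (exact permutation p = 0.0243), and Tnfrsf1a, with r = −0.78 (exact permutation p = 0.0191). All 3 had an adjusted p of 0.101. By rank, rho was 0.86 for Tnfsf13b and −0.86 for Tnfrsf1a (adjusted exact permutation p = 0.0536 for both), and 0.45 for Tnfrsf19 (adjusted exact permutation p = 0.649). Without control 2 and control 1, r was 0.78 for Tnfsf13b, 0.44 for Tnfrsf19 and −0.60 for Tnfrsf1a. For Tnfrsf12a r was −0.27 (exact permutation p = 0.501) over all 8 arrays but −0.87 without control 2 and control 1, so its relation to brightness differs by which arrays are counted. For Tnfsf14 r was −0.07 (exact permutation p = 0.872) over all 8 arrays and −0.45 without those 2.

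**Figure D4:**
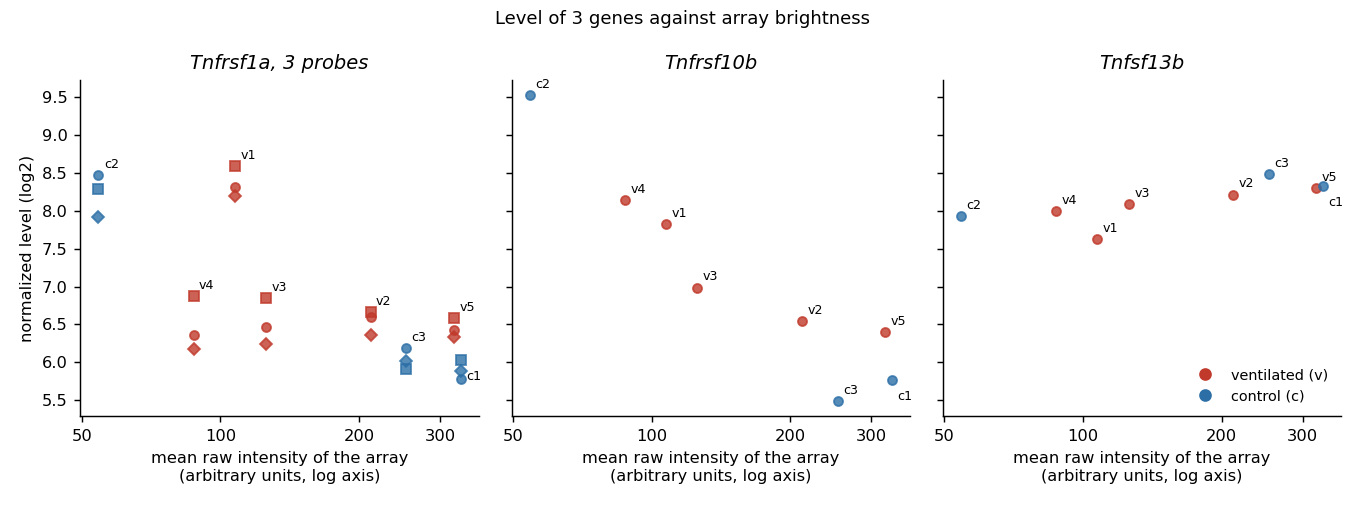
Normalized log2 level of Tnfrsf1a (3 probes, 1 marker shape each), Tnfrsf10b and Tnfsf13b in each lung against the mean raw intensity of its array (log axis). Ventilated lungs (v1 to v5) are red and control lungs (c1 to c3) blue. Tnfrsf1a is high in v1 and c2 by all 3 probes, and Tnfrsf10b runs from 9.53 on the dimmest array, c2, to 5.49 on c3.

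The other measured death domain receptors were Tnfrsf21 and Tnfrsf25. Tnfrsf21 (DR6), a receptor studied in neurons and T helper cells, was detected on all 8 arrays. It had 8.25, 8.47, 8.68, 7.82 and 7.97 in ventilated lungs, against 8.10, 8.79 and 8.70 in controls, with a log2 fold change of −0.29 ± 0.27 (SE; adjusted p = 0.644). A dimmer second probe gave 0.07 (adjusted p = 0.942 over all probes), so the 2 probes differed in sign. Tnfrsf25 (DR3), the T cell receptor for TL1A, had the smallest p among the members of this class, without passing. It stood at 5.26, 5.03, 4.76, 4.29 and 4.88 in ventilated lungs, against 5.49, 4.39 and 5.78 in controls. On ventilated 3, ventilated 4 and control 2 it was not detected, so those values give only bounds. The log2 fold change was −0.38 ± 0.34 (SE; adjusted p = 0.631), or −0.79 (adjusted p = 0.176) without control 2, −0.25 without control 1 and −0.0993 without control 3.

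Among secreted and decoy receptors, Tnfrsf22, a mouse receptor for TRAIL without a death domain, had the smallest p. It stood at 6.58, 5.05, 4.41, 4.78 and 5.59 in ventilated lungs, against 5.93, 6.94 and 5.61 in controls. Ventilated 1 lay within the control range, and the other 4 ventilated lungs lay below all controls, ventilated 5 by little. Tnfrsf22 was not detected on ventilated 3 and 4, so their values give only bounds. The lowest levels that counted as detected there were 4.82 and 5.24. Its log2 fold change was −0.88 ± 0.48 (SE; 95% interval −1.93 to 0.18; adjusted p = 0.405), −0.49 without control 2 and −1.20 without ventilated 1. The gene lies beside the related Tnfrsf23 and Tnfrsf26, and whether its probe also binds their transcripts was not tested. Tnfrsf11b (osteoprotegerin), the soluble decoy for RANK ligand, stood at 5.38, 5.39, 4.58, 5.31 and 4.79 in ventilated lungs, against 5.57, 4.61 and 5.47 in controls. Its log2 fold change was −0.13 ± 0.30 (SE; adjusted p = 0.878), and it was not detected on ventilated 3 and control 2.

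Several family members carry symbols that the rule does not match, and among these Fas rose in ventilated lungs. Fas (CD95), a death domain receptor that starts apoptosis and is also a target of p53, had 10.16, 10.17, 10.13, 9.50 and 10.12 in ventilated lungs 1 to 5. In control lungs 1 to 3 it had 8.79, 8.78 and 9.22. All ventilated values lay above all controls, and ventilated 4 was the lowest of the 5. The log2 fold change was 1.09 ± 0.24 (SE; adjusted p = 0.0471), or 2.12-fold. The call lay close to the threshold and held under 14 of 27 alternatives. Leaving out ventilated 4 kept it (adjusted p = 0.0389), while each of the other 7 omissions ended it at log2 fold changes of 1.01 to 1.23 (adjusted p = 0.0787 to 0.14). A second probe gave 0.99 (adjusted p = 0.132 over all probes), and there ventilated 4, at 7.72, lay below control 3, at 7.77. Within the 4 brighter arrays it was 1.14 (adjusted p = 0.139).

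Of the 14 family members listed under other symbols 6 were measured, 1 passed upward (beside 1.26% of all features) and none downward, with a median log2 fold change of 0.25. Ltbr, the lymphotoxin beta receptor and a receptor for Tnfsf14, was 7.54, 6.70, 6.82, 6.91 and 6.71 in ventilated lungs, against 6.08, 6.39 and 6.06 in controls. Its log2 fold change was 0.76 ± 0.25 (SE; adjusted p = 0.161), with groups that did not overlap. Tnfrsf14, the other receptor for Tnfsf14, was at 4.24, 4.47, 4.42, 4.36 and 4.44 in ventilated lungs, against 4.57, 4.52 and 4.83 in controls. It was detected on no ventilated array and on too few controls to be measured, so no fold is given. Cd40, the costimulatory receptor of B cells and macrophages, had a log2 fold change of 0.26 ± 0.21 (SE; adjusted p = 0.585).

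The promoters of Tnfrsf12a, Tnfsf14 and Fas are shown because these 3 receptors and ligands had the largest fold changes. Their normalized levels were also higher in every ventilated lung than in every control, though Tnfsf14 was not detected on control 2. Each run is the 250 bases before the RefSeq transcription start (build GRCm38.p6), 5′ to 3′ on the gene's strand, and capitals mark matches on either strand to an NF-kB type pattern (GGG and CC with any 5 bases between) or an AP-1 type pattern (TGANTCA).
Tnfrsf12a, chr17:23677450-23677699, minus strand: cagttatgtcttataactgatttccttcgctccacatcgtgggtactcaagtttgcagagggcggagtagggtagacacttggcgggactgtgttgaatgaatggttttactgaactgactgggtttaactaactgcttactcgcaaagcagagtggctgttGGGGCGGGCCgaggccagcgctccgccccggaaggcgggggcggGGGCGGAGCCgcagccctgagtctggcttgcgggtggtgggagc
Tnfsf14, chr17:57194182-57194431, minus strand: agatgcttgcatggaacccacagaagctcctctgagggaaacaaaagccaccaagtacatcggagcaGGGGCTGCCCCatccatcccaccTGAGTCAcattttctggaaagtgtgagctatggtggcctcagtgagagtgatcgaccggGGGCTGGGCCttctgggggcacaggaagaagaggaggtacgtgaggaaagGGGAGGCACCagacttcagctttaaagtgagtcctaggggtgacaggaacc
Fas, chr19:34290409-34290658, plus strand: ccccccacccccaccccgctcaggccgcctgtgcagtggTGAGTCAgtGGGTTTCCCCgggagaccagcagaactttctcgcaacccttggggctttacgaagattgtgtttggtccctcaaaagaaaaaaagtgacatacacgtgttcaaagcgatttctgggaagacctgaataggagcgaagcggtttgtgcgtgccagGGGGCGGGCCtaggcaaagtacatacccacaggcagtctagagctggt
The NF-kB type pattern matched 2 times in Tnfrsf12a, 4 times in Tnfsf14, where 2 of the matches overlap, and 2 times in Fas. The AP-1 type pattern matched 0, 1 and 1 times. Of all 32851 promoters in the table, 45.8% hold the first pattern and 6.75% the second in the same window. Among 28 promoters of 24 members, 15 and 4 hold them. A match describes letters only and says nothing of binding.

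No gene on the lists of adaptors, death effectors or NF-kB kinases passed the test. Of 23 receptor adaptors and inhibitors of receptor complexes 18 were measured and 0 passed (4 at an unadjusted p under 0.05 in limma, 2 in each direction, beside 16.2% of all features), with a median log2 fold change of 0.14. Traf1, an adaptor that is itself induced by NF-kB, had the smallest p, with 5.78, 5.28, 5.00, 4.56 and 5.63 in ventilated lungs, against 6.87, 5.76 and 6.44 in controls. Its log2 fold change was −1.10 ± 0.34 (SE; adjusted p = 0.136). Tnfaip3 (A20), an inhibitor of NF-kB signalling that TNF induces, had 6.86, 7.26, 7.30, 6.91 and 7.64 in ventilated lungs, against 7.10, 4.40 and 6.07 in controls. Control 1 lay within the ventilated range and control 2, where it was not detected, was the lowest. Its log2 fold change was 1.34 ± 0.49 (SE; adjusted p = 0.214). Tnip2, which binds Tnfaip3, had 0.91 ± 0.32 (SE; adjusted p = 0.186), and Traf5, another adaptor, −0.73 ± 0.33 (SE; adjusted p = 0.304). Of 15 death and survival effectors 10 were measured and 0 passed, none with an unadjusted p under 0.05, with a median of −0.21. Bid, which links death receptors to mitochondria, had the smallest p there (0.48 ± 0.29, SE; adjusted p = 0.458). Of 14 kinases and subunits of the NF-kB branches 11 were measured and 0 passed, again none at an unadjusted p under 0.05. Their median was 0.27, and Tab2, an adaptor of the kinase TAK1, had the smallest p (0.46 ± 0.21, SE; adjusted p = 0.308).

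Of 12 genes that shed ligands and receptors or control shedding, 8 were measured and 1 rose (beside 1.26% of all features), with a median of 0.21. It was Mmp9, a gelatinase stored in neutrophils, with 6.93, 6.68, 6.60, 6.78 and 6.67 in ventilated lungs, against 5.24, 6.03 and 4.98 in controls (log2 fold change 1.32 ± 0.26, SE; adjusted p = 0.0325). That call held under 16 of 27 alternatives. Leaving out control 2 kept it (1.62, adjusted p = 0.00582), while each of the other 7 omissions ended it at 1.10 to 1.35 (adjusted p = 0.0699 to 0.123). Adam17, the main sheddase of TNF and its receptors, had 0.13 ± 0.31 (SE; adjusted p = 0.883). Of 19 genes listed as TNF-inducible 16 were measured and 0 passed. At an unadjusted p under 0.05 in limma there were 6, all higher in ventilated lungs. Of all features, 8.69% were higher at that level. The list had a median of 0.32. Whether TNF induced any of these genes here was not tested, and Tnf itself was not measured. Of the 6, Tnfaip3 also stands on the adaptor list. Cxcl2, a chemokine for neutrophils, was detected on 3 ventilated arrays and no control, so it was measured only through the group where it was high, and its direction carries no weight in that count. Litaf, a lipopolysaccharide-induced membrane protein, had the smallest p, with a log2 fold change of 1.00 ± 0.23 (SE; adjusted p = 0.0574). It passed under 11 of 27 alternatives. Icam1 and Vcam1, endothelial adhesion molecules, had −0.29 ± 0.24 and 0.41 ± 0.22 (SE; adjusted p = 0.605 and 0.4).

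Markers of blood and tissue cells moved with the groups in part. Of 9 neutrophil markers 8 were measured and 5 rose (beside 1.26% of all features), Camp, Il1r2, Retnlg, S100a8 and S100a9. The summed background-corrected level of the 8 was 6433 to 15995 in ventilated lungs, against 267 to 514 in control lungs. Camp, Il1r2, Ngp and Cxcr2 were detected on no control array. They were measured only through the ventilated arrays, so their direction carries no weight in that count. The summed level and the score below include these genes, so the group difference in neither is free of that filter. Mmp8 was not measured. Among the ventilated lungs, ventilated 1 had the highest neutrophil score, 3.87 above the control mean on the log2 scale. The other ventilated lungs had 2.25 to 3.09. Ventilated 1 also had the highest normalized level of Tnf, Tnfsf14 and Tnfrsf1a of the ventilated lungs, though Tnf was detected on ventilated 1 alone. The same held for Tnfrsf12a, Tnfrsf11a, Tnfrsf22, Tnfrsf25, Tnfrsf9, Tnfsf9 and Ltbr, so it was not particular to a few genes. For Tnfsf13b, Tnfrsf19 and Tnfrsf18 ventilated 1 was the lowest of the ventilated lungs. A relation of these levels to the neutrophil score was not tested. Of 8 T cell markers 5 were measured and 1, Cd3d, rose (beside 1.26% of all features). The log2 fold change was 0.79 for Cd3e and 0.31 for Cd8b1, but −0.23 for Cd3g and −0.34 for Thy1. The 5 summed to 171 to 371 in ventilated and 125 to 184 in control lungs. Cd4 and Cd8a were not measured. The 3 measured markers of regulatory T cells summed to 33.0 to 69.3 in ventilated and 19.4 to 73.7 in control lungs, where the top sum belonged to control 2 and its Il2ra level of 5.97. Foxp3, the transcription factor that defines these cells, had 5.26, 5.19, 5.08, 5.53 and 4.81 in ventilated lungs, against 4.54, 4.71 and 4.60 in controls. The normalized levels did not overlap, and the log2 fold change was 0.56 ± 0.22 (SE; adjusted p = 0.241). Foxp3 was not detected on control 2, where the lowest level that counted as detected was 5.79. Separation from control 2 is therefore not shown. Skeletal muscle markers summed to 56.8 to 90.9 in ventilated lungs and 12.4 to 3453 in controls, with the top value in control 1, the control with the highest Tnfrsf12a. The part of these cells in the values of Tnfsf14, Tnfrsf4, Tnfrsf12a and Fas was not tested.

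**Figure D5:**
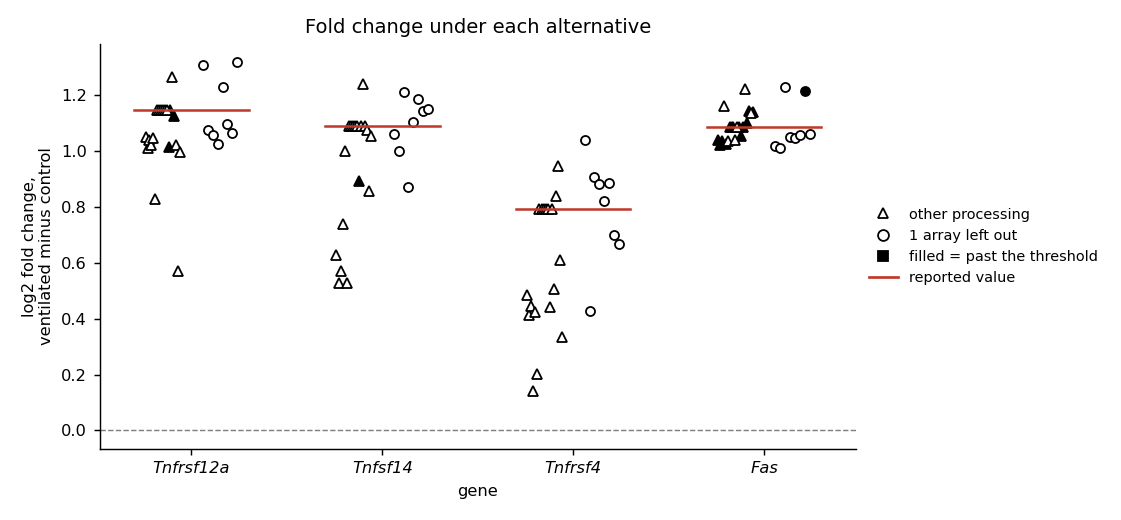
Log2 fold change, ventilated minus control, of Tnfrsf12a, Tnfsf14, Tnfrsf4 and Fas under other processing (triangles) and with 1 array left out (circles). The red line is the reported value, and filled symbols are past the threshold of the setting. All points lie above 0 for the 4 genes; Tnfrsf4 ranges from 0.14 to 1.04 and Fas from 1.01 to 1.23.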

How the data were processed

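Biotin-labelled cRNA from total RNA of whole lung was read on Illumina bead arrays, per the labels. The intensities the authors deposited are neither normalized nor background-subtracted, and per the file headers a p-value for detection stands beside each. A second table that the authors deposited holds the same intensities times 1 factor per array, apart from 1 probe value. The sources used here name neither scanner nor software. Of 25697 probes, 23978 carry 1 gene symbol in the platform annotation, 0 carry several and 1719 carry none.

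Background was corrected with limma's neqc method (limma 3.58.1, R 4.3.3), which estimated the negative controls through the detection p-values, with an offset of 16, quantile normalization and then log2. Of the probes, 13374 met the detection rule (p under 0.05 on 3 or more of the 8 arrays). Each gene was represented by its brightest such probe on average, for 10200 features. lmFit and eBayes tested ventilated against control, two-sided, with Benjamini-Hochberg adjustment over all features and a threshold of 0.05. Second probes come from a fit of all 13374 probes. The summed level of a marker list adds normalized linear values less the offset, and its score is the mean log2 difference from the control mean.

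Members and lists were chosen with earlier results of these data known. The naming rule takes Tnf, members past the threshold and their partners or otherwise the smallest p in each role, genes whose probes differ in sign, and from each companion list the largest changes past the threshold or the smallest p. All other genes were named with their values already known. The test was tried on simulated data with the means and spreads of the features. It recovered 1.8% of 1.5-fold, 22% of 2-fold, 74.2% of 4-fold and 93.2% of 8-fold changes. Most 2-fold changes were thus missed there, so a member that did not pass is not shown to be unchanged. Alternatives changed background, normalization, filter, probe choice, weights, blocks and arrays. Promoters come from RefSeq (24 of 31 members matched). The number of arrays, 5 and 3, limits precision.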

Additional observations from a re-analysis of the deposited data

Results flagged for a closer look

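Of 28 sets of ventilated values examined (the 15 measured members, their other measured probes, Tnf and 6 companion genes), 6 had 1 lung far from the other 4. Chance alone flags about 1 in 20 such sets, and sets that share a gene are not independent. Ventilated 1 was the high lung in 5 of them. For Tnfrsf1a it stood at 8.59, against 6.58 to 6.88 in the other ventilated lungs. The other Tnfrsf1a probes gave 8.31 (ILMN_1241228) and 8.20 (ILMN_2469333), against at most 6.60 and 6.36 in the other ventilated lungs. Control 2 shared this high Tnfrsf1a, at 8.29, 8.47 and 7.92 by the 3 probes. Tnfsf14 stood at 6.57 in ventilated 1, against 5.32 to 5.64, and Tnf at 5.11, against 4.30 to 4.46. Tnf was detected on ventilated 1 alone, so its lower values give only bounds. For Fas, ventilated 4 was the low lung, at 9.50, against 10.12 to 10.17.

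Outside the measured probes, 6 were detected in ventilated lungs and on no control array. The Tnfsf14 probe ILMN_2851575 was detected on 2 ventilated arrays. Tnf, Tnfrsf10b (ILMN_2454348), Tnfrsf1b (ILMN_1255973), Tnfrsf8 (ILMN_2514689) and Tnfsf11 were each detected on 1 ventilated array. In the other direction, 4 were detected on control arrays and on no ventilated array, for Tnfrsf14, Tnfrsf18 (ILMN_2419494), Tnfsf10 and Tnfsf8. Over all unmeasured probes the share of readings detected was 6.43% in ventilated and 9.52% in control lungs. The difference between the groups was not tested for these probes.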

How the results depend on the processing

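The count of 204 features called fell to 6 with the deposited value table, 2 with the replicate block, 11 on the brighter arrays and 120 without the dimmest array of each group. It was 0 in limma with a common median (116 at an unadjusted p under 0.05), which moved the median of all features to −0.11. It was 838 with array weights, 569 and 315 with brightness as a covariate and as a block, 314 with cyclic loess and 412 at an adjusted p under 0.10. Leaving out 1 array gave 68 to 164 features and 0 members. No member was called except with array weights (2, Tnfrsf12a and Tnfsf14), brightness as a covariate (1, Tnfrsf12a) and the threshold of 0.10 (1, Tnfrsf12a). For numbers shared by a ventilated and a control lung, deviations from the group means correlated at −0.34, −0.36 and 0.36. With so few numbers, and with control 2 set apart from the other arrays, these values cannot decide whether shared numbers mark pairs. With that replicate block the log2 fold change was 1.27 for Tnfrsf12a, 1.24 for Tnfsf14 and 1.22 for Fas. Tnfrsf12a and Tnfsf14 stayed above 0 under all their alternatives. Signs turned under some alternatives for Tnfrsf19, Tnfrsf10b, Tnfsf9, Tnfrsf9, Tnfrsf11b and Tnfrsf1a. Tnfrsf19 was −0.23 with a common median, −0.16 with the deposited values, −0.0175 with array weights, −0.0153 on the brighter arrays and −0.21 without the dimmest arrays. With brightness as a block Tnfrsf10b was −0.32 and Tnfsf9 −0.0309, and Tnfrsf9 was −0.0615 on the brighter arrays. Leaving out 1 array gave −0.47 to 1.55 for Tnfrsf10b, −0.43 to 0.0499 for Tnfrsf11b, −0.17 to 1.02 for Tnfrsf19, −0.0499 to 1.14 for Tnfrsf1a and −0.11 to 0.18 for Tnfsf9. The cause of these changes was not tested. Signal over background limits Tnf and the other unmeasured members, for which a change could not be seen.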
